A study of Rattus norvegicus with 6 samples.

Results

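Enteroendocrine cells are scattered hormone-secreting cells of the gut epithelium that sense nutrients in the lumen. The set described here holds 10 of their genes: the 8 hormone genes *Gcg*, *Gip*, *Cck*, *Sct*, *Pyy*, *Nts*, *Sst* and *Ghrl* and the 2 granin genes *Chga* and *Chgb*. They were listed by function, each was found on 1 transcript cluster of the array, and they are 10 of 18166 genes tested. RNA came from the intestines of 6 male Sprague Dawley pups at 3 weeks of age, on 1 Affymetrix rat gene array per pup. In the HFD group the dams ate a high-fat diet from before mating through lactation. In the HFD-sitagliptin group the dams ate the same diet and also received oral sitagliptin in pregnancy and lactation, so both groups carry the maternal high-fat diet and only the dams, not the pups, were dosed. Each group had 3 arrays. The sources used here do not name the part of the intestine that was sampled, and the arrays measured bulk tissue, in which fewer enteroendocrine cells and less RNA per cell cannot be told apart.

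Each type of enteroendocrine cell is known for its main hormones and for a favoured stretch of gut. K cells of the proximal small intestine make the incretin GIP, and L cells, most frequent in ileum and colon, make the incretin GLP-1 from the *Gcg* precursor together with peptide YY. Both incretins raise insulin secretion after a meal and are inactivated by dipeptidyl peptidase 4, the enzyme that sitagliptin inhibits. Cholecystokinin and secretin are known from the upper small intestine, neurotensin from the ileum, somatostatin from D cells along the whole gut, and ghrelin from the stomach with a smaller source in the duodenum. Granins are acidic proteins of the secretory granule and serve as general markers of endocrine cells.

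The values are log2 expression values, which are comparable between arrays for 1 gene but not between genes. As a level of background, the 95th percentile of 1185 olfactory receptor genes was taken on each array (log2 4.38 to 4.85). On that standard 7 of the 10 genes were above background on all 6 arrays, *Ghrl* on 5, and *Pyy* and *Nts* on 4. *Insm1*, a transcription factor of enteroendocrine precursors, was above it on all 6 arrays (log2 4.98 to 5.42) and *Neurod1* on 4 (4.20 to 5.36). *Rfx6*, another factor of these cells, was above it on none, at 3.76 to 3.89.

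None of the 10 genes was past the threshold of the study (at least 1.5-fold, unadjusted p under 0.05) when HFD-sitagliptin was compared with HFD in limma, a linear model with a moderated variance fitted to all genes. Over all genes 2.01% were past it, 0.705% higher and 1.3% lower in HFD-sitagliptin pups. The number of the 10 genes with an unadjusted p under 0.05 was 0 in limma, where 5.72% of all genes had one, and the methods' t-test put 0 past the threshold. No gene of the array passed an adjusted p of 0.05 (0%, lowest adjusted p 0.718). Of the 10 genes, 6 had a positive and 4 a negative log2 fold change, with a median of 0.291 against 0.0103 over all genes. The 95% interval included 0 for all 10 genes.

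**Figure D1:**
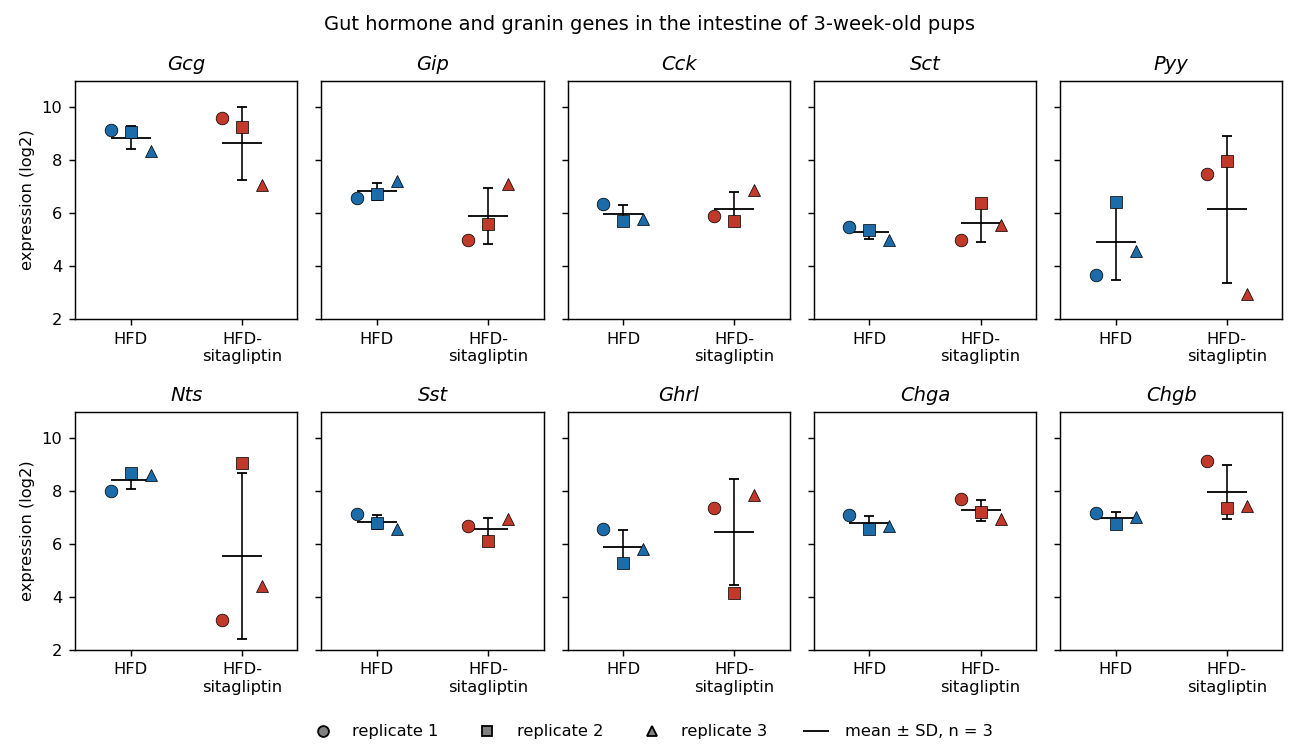
Expression (log2, vertical axis) of the 10 genes in 3 HFD pups (blue) and 3 HFD-sitagliptin pups (red), with the shape of a point giving the replicate number and black bars the mean ± SD of 3 arrays. *Nts*, *Pyy* and *Ghrl* have the widest spread among the red points, and only the *Chgb* groups do not overlap.

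The HFD-sitagliptin pups differed widely among themselves. The SD of the HFD-sitagliptin group was above that of the HFD group for 10 of the 10 genes, against 59.2% of the 11884 genes with a mean above background. Without HFD-sitagliptin replicate 1 this held for 8 of the 10 genes, against 39.1%. The HFD-sitagliptin group held the highest array for 8 genes and the lowest array for 8 genes, and it held both for 6 genes. The shares of all genes with such extremes were not counted. The highest and the lowest array differed by over 2 on the log2 scale for 6 genes. The narrowest of these 6 ranges, 2.20 for *Gip*, was above that of 96.1% of the genes above background, whose median range was 0.681.

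*Gcg*, which encodes the precursor of glucagon, GLP-1 and GLP-2, had log2 values of 9.14, 9.07 and 8.37 in HFD replicates 1, 2 and 3 and of 9.59, 9.27 and 7.05 in HFD-sitagliptin replicates 1, 2 and 3. The HFD-sitagliptin group thus held both the highest and the lowest array, and the groups overlapped. The log2 fold change was -0.22 (standard error 0.67, 95% interval -1.83 to 1.38, limma adjusted p = 0.921). It was 0.57 with HFD-sitagliptin replicate 3 left out and -0.70 with replicate 1 of that group left out, so its direction turned with 1 array.

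*Gip*, the gene of glucose-dependent insulinotropic polypeptide, had values of 6.59, 6.71 and 7.20 in the HFD arrays and of 5.0, 5.60 and 7.09 in the HFD-sitagliptin arrays. HFD-sitagliptin replicates 1 and 2 lay below every HFD array, and replicate 3 lay inside the HFD range. The group means were 6.83 ± 0.32 (SD, n = 3) and 5.90 ± 1.07 (SD, n = 3), a 1.91-fold lower mean in HFD-sitagliptin pups (log2 fold change -0.94, standard error 0.52, limma adjusted p = 0.718), which was not past the threshold. Neither the labels nor the paper states a pairing of the arrays. Between arrays of the same replicate number *Gip* differed by -1.59, -1.10 and -0.12 on the log2 scale, lower in HFD-sitagliptin in all 3 pairs. With the replicate number as a block it was past the threshold (standard error 0.31, unadjusted p = 0.03 and adjusted p = 0.65 in limma). *Gip* was also past the threshold without HFD-sitagliptin replicate 3 (log2 fold change -1.53), as were 880 of all 18166 genes. Without HFD-sitagliptin replicate 1 *Gip* was at -0.49.

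*Nts*, the neurotensin gene, showed the widest spread, 5.96 on the log2 scale. Its values were 8.01, 8.67 and 8.63 in the HFD arrays and 3.13, 9.08 and 4.41 in the HFD-sitagliptin arrays. HFD-sitagliptin replicates 1 and 3 were at background, whereas replicate 2 was the highest of all arrays. The log2 fold change was -2.90 (standard error 1.44, 95% interval -6.36 to 0.56, limma adjusted p = 0.718). Same-number arrays, for which no pairing is stated, differed by -4.88, 0.41 and -4.22. With the replicate number as a block the gene was past the threshold (standard error 1.08, unadjusted p = 0.0465 and adjusted p = 0.65 in limma). Without HFD-sitagliptin replicate 2 *Nts* was at -4.67 and past the threshold, as were 451 of all 18166 genes.

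*Pyy*, the gene of the L cell hormone peptide YY, had values of 3.65, 6.44 and 4.56 in the HFD arrays and of 7.48, 7.98 and 2.94 in the HFD-sitagliptin arrays. It was thus high in both replicate 2 arrays and in HFD-sitagliptin replicate 1, and at background in HFD replicate 1 and HFD-sitagliptin replicate 3. The log2 fold change was 1.25 (standard error 1.42, limma adjusted p = 0.797), and the groups overlapped. Without HFD-sitagliptin replicate 3, in which *Pyy* was lowest, the value was 2.85 and past the threshold. That fit put 880 of all 18166 genes past it. *Pyy* and *Gcg* are both known as L cell genes, and both were at their lowest in HFD-sitagliptin replicate 3, while in HFD replicate 1 *Gcg* was at 9.14 and *Pyy* at 3.65.

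The start regions of the incretin genes and of the genes with the widest spread are shown as 300 bases each, 250 before and 50 after the transcript start, 5′ to 3′ on the strand of the gene. They come from RefSeq in build GRCr8, in which 7 of the 10 genes were matched, and lie at chr3:67531484-67531783 on the minus strand (*Gcg*), chr10:81464820-81465119 on the plus strand (*Gip*), chr10:87562421-87562720 on the minus strand (*Pyy*) and chr7:39460839-39461138 on the minus strand (*Nts*). Capitals mark 4 short motifs on either strand, namely TATAA as the core of a promoter box, AGATAA as that of a GATA factor element, TGAGTCA as that of an AP-1 element, and TGACGTCA as that of a cAMP response element.
Gcg: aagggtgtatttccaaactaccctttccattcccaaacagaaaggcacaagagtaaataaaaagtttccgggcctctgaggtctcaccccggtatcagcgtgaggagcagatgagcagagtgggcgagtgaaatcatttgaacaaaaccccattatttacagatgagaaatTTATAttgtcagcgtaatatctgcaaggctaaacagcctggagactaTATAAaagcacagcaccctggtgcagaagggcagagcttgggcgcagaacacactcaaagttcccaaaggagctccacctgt
Gip: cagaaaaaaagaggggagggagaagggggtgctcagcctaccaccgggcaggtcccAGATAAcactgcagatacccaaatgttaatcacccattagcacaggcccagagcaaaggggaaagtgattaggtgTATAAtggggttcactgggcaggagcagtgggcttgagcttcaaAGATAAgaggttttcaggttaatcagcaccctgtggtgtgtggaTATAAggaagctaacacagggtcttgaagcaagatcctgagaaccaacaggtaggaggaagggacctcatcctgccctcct
Pyy: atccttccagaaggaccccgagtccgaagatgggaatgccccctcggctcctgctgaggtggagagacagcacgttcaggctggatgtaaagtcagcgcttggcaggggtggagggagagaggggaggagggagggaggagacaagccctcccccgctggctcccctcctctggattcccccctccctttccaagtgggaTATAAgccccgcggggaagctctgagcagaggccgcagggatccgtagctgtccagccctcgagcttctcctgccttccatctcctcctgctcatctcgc
Nts: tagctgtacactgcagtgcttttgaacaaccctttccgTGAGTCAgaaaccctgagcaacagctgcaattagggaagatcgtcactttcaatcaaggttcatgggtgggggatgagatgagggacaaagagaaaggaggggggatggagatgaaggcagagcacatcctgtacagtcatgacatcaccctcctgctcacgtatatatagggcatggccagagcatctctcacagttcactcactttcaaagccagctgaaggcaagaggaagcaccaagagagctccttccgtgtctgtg
The *Gip* window held AGATAA at 2 places, beginning 194 and 75 bases before the start, and 11.6% of 33469 windows of this length held it. TATAA was found in the windows of *Gcg*, *Gip* and *Pyy*, 3 of the 7 matched genes, and in 26.2% of all windows. Of the marked motifs only the exact letters were searched, so the stretch tatatata in the *Nts* window is not marked. Also searched, but not marked, was the E-box CANNTG, in which N is any base. It was in the windows of 7 of the 7 matched genes and in 72.1% of all windows. The *Nts* window held TGAGTCA, 212 bases before the start, as did 4.6% of all windows. TGACGTCA was in the window of 1 matched gene, *Sst*, and in 1.8% of all windows. None of the marked motifs overlaps another marked motif in the printed windows, and a match is a description of letters only.

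*Cck*, the cholecystokinin gene, had values of 6.34, 5.71 and 5.79 in the HFD arrays and of 5.90, 5.69 and 6.89 in the HFD-sitagliptin arrays. Its highest array was HFD-sitagliptin replicate 3, and the groups overlapped (log2 fold change 0.22, standard error 0.35, 95% interval -0.61 to 1.05, limma adjusted p = 0.846). Without that array the value was -0.15. *Sct*, the gene of secretin, which drives bicarbonate secretion by the pancreas, had values of 5.46, 5.36 and 4.99 in the HFD arrays and of 4.97, 6.38 and 5.55 in the HFD-sitagliptin arrays. HFD-sitagliptin replicate 2 was high, and without it the log2 fold change of 0.37 (standard error 0.36, limma adjusted p = 0.765) was -0.01.

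*Ghrl*, the gene of the appetite-stimulating hormone ghrelin, had values of 6.56, 5.28 and 5.83 in the HFD arrays and of 7.37, 4.15 and 7.85 in the HFD-sitagliptin arrays. HFD-sitagliptin replicates 1 and 3 lay above every HFD array, and replicate 2 lay below every HFD array and at background. The log2 fold change was 0.56 (standard error 0.96, 95% interval -1.76 to 2.88, limma adjusted p = 0.856). It was 1.72 and past the threshold without HFD-sitagliptin replicate 2, a fit that put 451 of all 18166 genes past it. With replicate 3 of that group dropped *Ghrl* was at -0.13. The stomach genes *Atp4a* of the parietal cell proton pump, *Pgc* and *Gkn1* were above background on 0 of the 6 arrays. Of 13 measured genes of the stomach list, 3 had a mean above background, *Barx1* (log2 fold change 0.44), *Tff1* (-0.01) and *Tff2* (0.14), none past the threshold. The summed log2 level of the 13, most of them at background, was 51.30 to 53.14 in HFD and 53.35 to 54.27 in HFD-sitagliptin arrays. The median of all clusters of an array was 4.45 to 4.62 in HFD and 4.56 to 4.62 in HFD-sitagliptin arrays. The part of stomach tissue in the *Ghrl* values was not tested.

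*Sst*, the gene of somatostatin, which restrains the release of other gut hormones, had the narrowest spread of the 10 genes, 1.0 on the log2 scale. Its values were 7.13, 6.81 and 6.58 in the HFD arrays and 6.67, 6.13 and 6.95 in the HFD-sitagliptin arrays. The groups overlapped, with a log2 fold change of -0.26 (standard error 0.25, 95% interval -0.86 to 0.34, limma adjusted p = 0.763). *Sst* and *Gcg* are also genes of pancreatic islets. Of the 17 measured genes of the pancreas list, 7 had a mean above background, and the summed log2 level was 66.48 to 71.99 in HFD and 68.74 to 69.61 in HFD-sitagliptin arrays. The insulin gene *Ins1* was above background on 0 arrays, *Ins2* was at 4.91, 5.48 and 4.58 in HFD and 5.07, 4.91 and 4.79 in HFD-sitagliptin arrays, and the exocrine genes *Amy2a3* (-1.44) and *Prss1* (-1.0) were lower past the threshold, with *Prss1* above background on 0 arrays. Of all genes, 1.3% were lower past the threshold. *Amy2a3* was not past it without HFD replicate 1 (-1.92 to -1.20 over the 6 fits with 1 array left out), and *Prss1* was past it in 2 of these fits (-1.32 to -0.78). Their part in the islet hormone values was not tested.

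*Chgb*, the chromogranin B gene, was the 1 gene of the 10 whose groups did not overlap, where 11.5% of all genes had groups that did not overlap and 5.97% had HFD-sitagliptin above HFD. Its values were 7.18, 6.77 and 7.03 in the HFD arrays and 9.14, 7.36 and 7.42 in the HFD-sitagliptin arrays. The log2 fold change was 0.98 (standard error 0.48, limma adjusted p = 0.718), and without HFD-sitagliptin replicate 1, its highest array, it was 0.39. By an exact permutation test over the arrays (two-sided) its p was 0.1, which is the smallest that 3 against 3 arrays can give. *Chga*, the chromogranin A gene, had values of 7.09, 6.56 and 6.69 in the HFD arrays and of 7.72, 7.20 and 6.94 in the HFD-sitagliptin arrays (log2 fold change 0.50, standard error 0.24, limma adjusted p = 0.718). The groups overlapped in 1 array of each, HFD replicate 1 and HFD-sitagliptin replicate 3. *Chga* was past the threshold without HFD-sitagliptin replicate 3 (0.68) and without HFD replicate 1 (0.66). These fits put 880 and 239 of all 18166 genes past it.

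In the fit with a block for the replicate number, 3 of the 10 genes were past the threshold, *Chgb* higher and *Gip* and *Nts* lower, against 2.62% of all genes. *Chgb* differed by 1.95, 0.59 and 0.38 between same-number arrays (unadjusted p = 0.038, adjusted p = 0.65 in limma). *Chga* differed by 0.62, 0.64 and 0.25, and its change of 1.42-fold stayed under the fold threshold. *Gip*, *Chga* and *Chgb* were the 3 genes with the same direction in all 3 pairs. The share of all genes with the same direction in all pairs was not counted, and neither the labels nor the paper states a pairing.

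**Figure D2:**
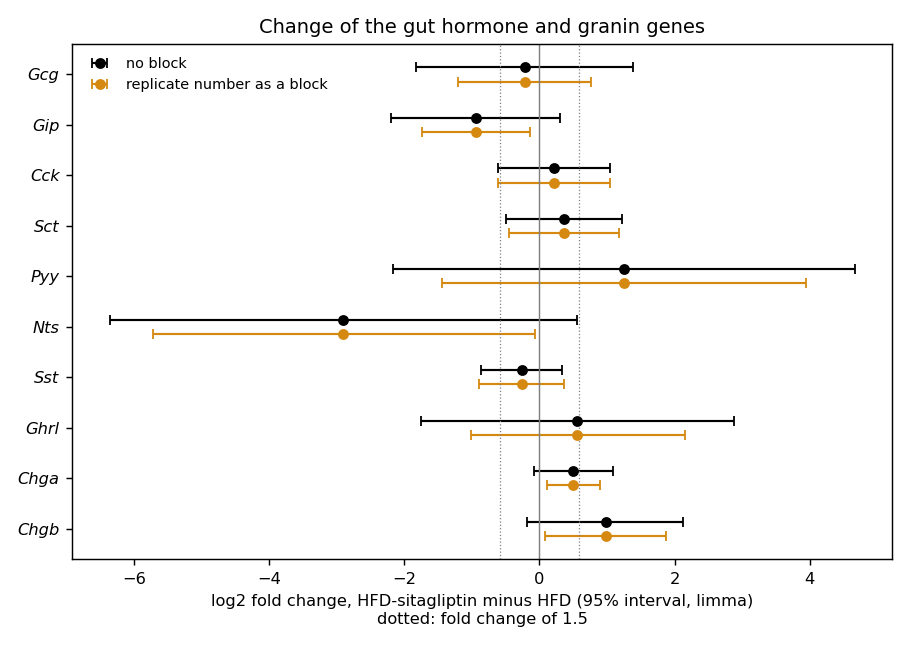
Log2 fold change, HFD-sitagliptin minus HFD (horizontal axis), of the 10 genes with its 95% interval from limma without a block (black) and with same-number arrays blocked (orange), with dotted lines at a fold change of 1.5. Every black interval includes 0, and the orange intervals of *Gip*, *Nts*, *Chga* and *Chgb* do not.

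Landmark genes of gut regions differed between the same arrays. *Car1*, a carbonic anhydrase of colonic epithelium, and *Hoxa13*, a hindgut transcription factor, were at 12.41 and 6.53 in HFD-sitagliptin replicate 1 and at most at 4.04 and 3.70 elsewhere. In that array the brush border gene *Si* was at 2.72, *Nts* and *Gip* were at their lowest, and *Gcg* and *Chgb* were at their highest. *Fabp6*, whose protein carries bile acids in ileal cells, was at 13.16 and 12.62 in the replicate 2 arrays of HFD-sitagliptin and HFD, and *Slc10a2*, the ileal bile acid transporter, was at 9.58 and 6.82. *Ghrl* was lowest in these 2 arrays. *Nts* was at 9.08 and 8.67 in them, but also at 8.01 and 8.63 in HFD replicates 1 and 3, where *Fabp6* was at 7.36 and 6.03. *Slc40a1*, the iron exporter known from duodenal enterocytes, was picked after its values were seen and is among the profiles nearest to *Ghrl*. It was at 8.91 in HFD-sitagliptin replicate 3, at 7.42 in replicate 1 of that group and at 5.94 to 6.42 elsewhere. *Fabp6* was at 3.77 in HFD-sitagliptin replicate 3, near its 3.61 in HFD-sitagliptin replicate 1. *Lct*, the lactase gene of the small intestine, was at 10.07 in replicate 3, inside the HFD range of 9.54 to 10.71. In HFD-sitagliptin replicate 3 *Gcg* and *Pyy* were at their lowest, and *Cck* and *Ghrl* at their highest. The part of gut region in the differences of the hormone genes was not tested.

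The list means differed between the same arrays, carried by some of the genes of each list. The mean log2 level of 8 colon genes was 6.36 in HFD-sitagliptin replicate 1 and 4.32 to 4.82 in the others. *Hoxb13*, *Hoxd12* and *Hoxd13* of that list were above background on 0 arrays, and *Aqp8*, a water channel gene, was at 7.48 in HFD-sitagliptin replicate 3 and at 3.97 in replicate 1. The mean of 6 ileum genes was 9.85 and 8.70 in HFD-sitagliptin and HFD replicate 2 and 5.67 to 7.31 in the others, although *Osr2* of that list was highest in HFD replicate 1, at 8.29. The mean of 11 genes of the proximal small intestine was 5.58 and 7.31 in HFD-sitagliptin replicates 1 and 2 and 8.39 to 9.06 in the others, while *Cybrd1*, an iron reductase gene of that list, stayed between 6.03 and 6.49. Of the 11 proximal genes *Lct* (-3.71) and *Slc2a2*, a glucose transporter gene (-3.01), were lower past the threshold, as were 1.3% of all genes. Leaving out single arrays kept each of the 2 calls in 1 of 6 fits (the one lacking HFD-sitagliptin replicate 3). The median log2 fold change of the colon, ileum and proximal lists was 0.57, -0.77 and -1.53 with all arrays and 0.13, 0.09 and -0.20 without HFD-sitagliptin replicate 1. Without that array, 0 of the 10 hormone and granin genes were past the threshold, and 297 of all 18166 genes were. Without both replicate 2 arrays 2 of the 10 were, *Nts* lower (-4.55) and *Ghrl* higher (1.41), and 341 of all 18166 genes were. That setting was chosen after the values were seen. It drops the HFD-sitagliptin array in which *Nts* was highest and the 2 arrays in which *Ghrl* was lowest.

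**Figure D3:**
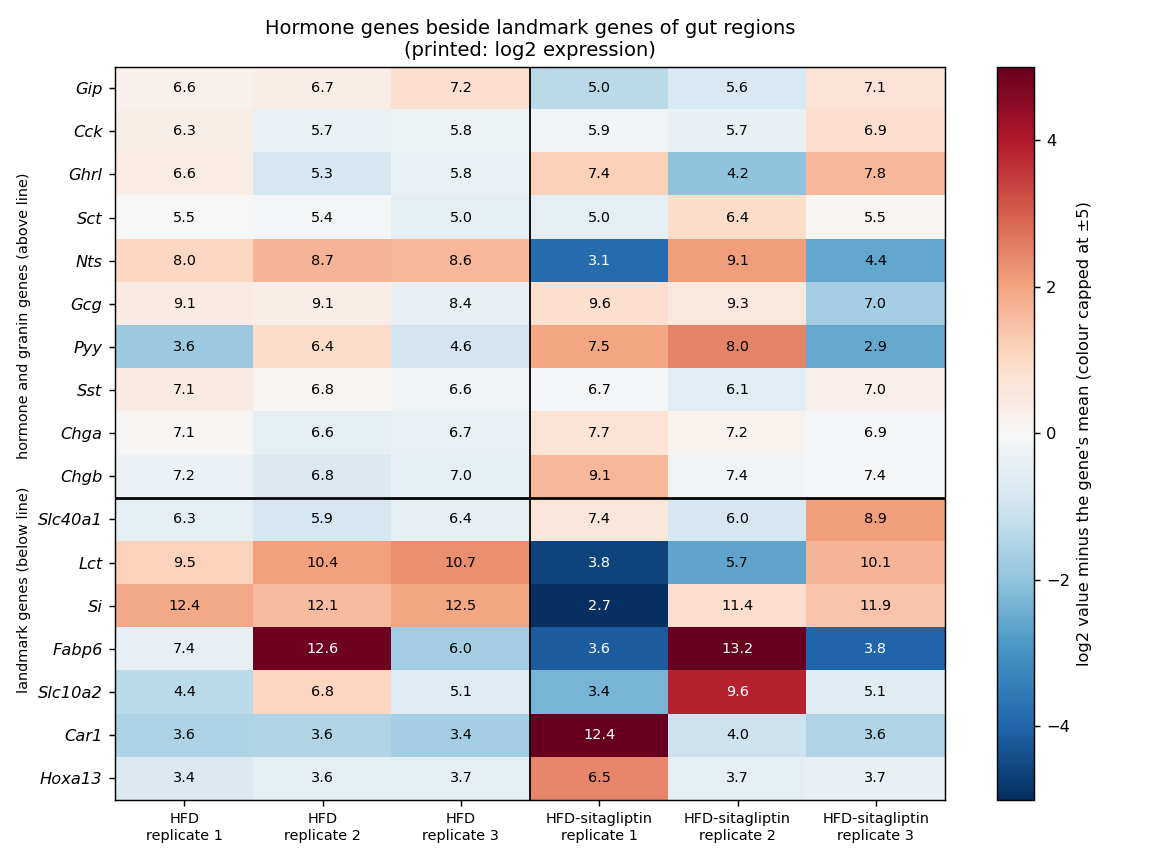
Log2 expression of the 10 hormone and granin genes (above the line) and 7 landmark genes of gut regions (below it) in each array, with colour giving the difference from the mean of the gene over 6 arrays. *Car1* is high in HFD-sitagliptin replicate 1, *Fabp6* in both replicate 2 arrays and *Slc40a1* in HFD-sitagliptin replicate 3. *Slc40a1* was picked after its values were seen and is among the profiles nearest to *Ghrl*. *Lct* in HFD-sitagliptin replicate 3 lies inside its HFD range. *Nts* is at 3.13 and 4.41 in HFD-sitagliptin replicates 1 and 3 and at 8.01 to 9.08 in the other arrays.

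Other cell types are also known to express some of these genes, since enteric neurons make granins, somatostatin and cholecystokinin. The mean log2 level of 17 neuron genes was 5.43 in HFD-sitagliptin replicate 1, in which *Chgb* was highest, and 4.88 to 5.05 in the other arrays, and 11 of them had a mean above background. Their summed log2 level was 83.84 to 85.87 in HFD and 82.93 to 92.36 in HFD-sitagliptin arrays, and the neuronal genes *Elavl4* and *Chat* were above background on 0 arrays. Of these 17 genes *Hand2* was higher (0.61) and *Vip* lower (-1.13) past the threshold, where 0.705% of all genes were higher and 1.3% lower. *Hand2* was past it in only 2 of the 6 fits with 1 array left out (0.41 without HFD-sitagliptin replicate 1). Smooth muscle genes, 9 in number, averaged 9.28 there and 7.91 to 8.18 elsewhere. The part of nerve and muscle tissue in the *Chgb* values was not tested.

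Genes that work with the hormones were taken from 5 further lists. Of 18 measured genes of other gut peptides and amines, 0 were higher and 2 were lower past the threshold (2.01% of all genes in either direction), with a median log2 fold change of -0.01. The lower genes were *Npy*, the neuropeptide Y gene (log2 6.94, 6.78 and 6.33 in HFD and 5.52, 5.45 and 5.37 in HFD-sitagliptin arrays, log2 fold change -1.24, standard error 0.18), and *Vip*, the gene of vasoactive intestinal peptide (7.23, 7.35 and 7.48 against 6.55, 6.63 and 5.49, log2 fold change -1.13, standard error 0.31), both with a limma adjusted p of 0.718. The groups of each did not overlap, as was so for 11.5% of all genes in either direction. Leaving out any single array kept both calls, in 6 of 6 fits (-1.41 to -1.11 for *Npy* and -1.33 to -0.76 for *Vip*). The share of all called genes that kept their call in these fits was not counted. Both peptides are best known in the gut from enteric nerves, and *Vip* is on the neuron list too. *Tph1*, which makes serotonin in enterochromaffin cells, was at 6.43, 5.45 and 5.89 in HFD and at 7.15, 5.67 and 6.61 in HFD-sitagliptin arrays and was lowest in both replicate 2 arrays, as was *Ghrl*. *Npw* (0.28) and *Ppy*, the pancreatic polypeptide gene (0.54), were the next by p, and *Npw* was above background on 0 arrays.

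Hormone precursors are cut and packed in granules before release. Of 21 measured genes of processing and granules, 0 were past the threshold in either direction (median log2 fold change 0.05), where a share of 2.01% as over all genes would come to less than 1 gene in this list and in each of the next 3. Those with the smallest p were *Pcsk1n*, an inhibitor of the prohormone convertase PC1 (0.36), *Syt7*, a calcium sensor of exocytosis (0.40), *Resp18* (0.29) and the granin *Scg3* (-0.20). Of 20 transcription factors of the lineage, 0 were past it (median 0.02). *Neurog3*, which starts the endocrine lineage, was at 5.47, 4.77 and 4.72 in HFD and 4.57, 4.53 and 4.63 in HFD-sitagliptin arrays (-0.41). *Neurod1* was at -0.47, *Foxa2* at 0.54 and *Runx1t1* at 0.29. *Neurog3* and *Neurod1* were above background on only 4 arrays, and *Foxa2*, *Runx1t1* and *Scg3* on only 3. Of 18 receptors of the hormones, 0 were past the threshold (median 0.13), and 7 had a mean above background. Of 11 peptidases that can degrade peptide hormones, 0 were past it (median -0.26), and *Dpp4* was at 7.34 in HFD-sitagliptin replicate 1 and 10.45 to 10.89 in the other arrays.

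Profiles over the 6 arrays were compared by the root mean square difference on the log2 scale after removal of the mean of each gene, among the genes with a mean above background. The genes nearest to *Gip* were *Acbd4* (0.18) and the carboxylesterase gene *Ces2c* (0.21), with *Ces2c* at 5.73, 6.19 and 7.80 in the HFD-sitagliptin arrays. Those nearest to *Gcg* were *Mpp7* (0.34) and *Hepacam2* (0.36). For *Ghrl* they were *S100g*, an intestinal calcium binding protein (0.52), and *Slc40a1* (0.66). For *Nts* they were the antimicrobial lectin gene *Reg3b* (0.71) and the peptidase gene *Naaladl1* (0.79), with *Reg3b* at 8.25, 12.67 and 9.63 in the HFD-sitagliptin arrays and 12.19 to 12.85 in the HFD arrays. For *Pyy* they were *Pmp22* (0.77) and the oxidase gene *Duox2* (0.95). The nearest to *Chga* were *Foxa2* (0.07) and *Kctd17* (0.08), to *Chgb* *Hoxa11-as* (0.12) and *P4ha1* (0.13), to *Cck* *Mir218-2* (0.10) and *Dmbt1* (0.14), and to *Sct* *Ndufb4l1* (0.13) and *Relb* (0.18).

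With 1 array left out at a time, 5 of the 10 genes were past the threshold in at least 1 of the 6 fits, and 4 had the opposite sign in at least 1. Each of these fits put 239 to 880 of 18166 genes past it. The shares of all genes past it, or with the opposite sign, in at least 1 fit were not counted. *Gip*, *Nts*, *Sst*, *Pyy*, *Chga* and *Chgb* kept their direction in all 6. The log2 fold change ran from -1.53 to -0.49 for *Gip*, from -4.67 to -1.69 for *Nts*, from 0.33 to 2.85 for *Pyy*, from -0.44 to -0.03 for *Sst*, from 0.29 to 0.68 for *Chga* and from 0.39 to 1.28 for *Chgb*.

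**Figure D4:**
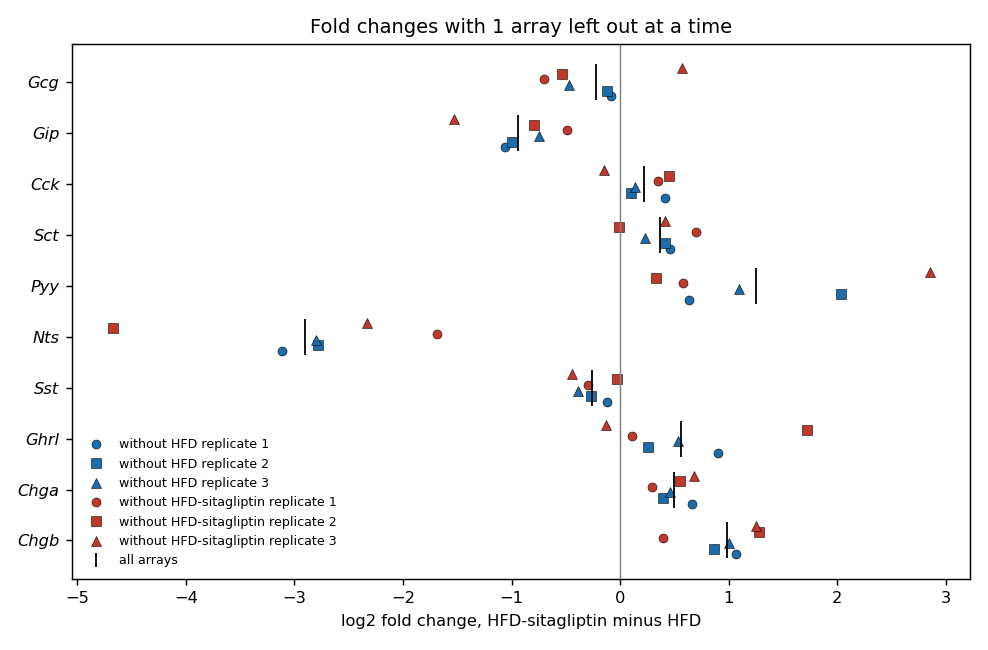
Log2 fold change, HFD-sitagliptin minus HFD (horizontal axis), of the 10 genes when 1 array is left out, with colour giving the group and shape the replicate number of the array left out, and a black bar the value with all arrays. The points of *Nts* run from -4.67 to -1.69 and those of *Pyy* from 0.33 to 2.85, and those of *Gcg*, *Cck*, *Sct* and *Ghrl* lie on both sides of 0.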

How the data were processed

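Intestinal RNA of 3 HFD-sitagliptin and 3 HFD pups was hybridised to 1 array each. The authors normalized the scans in GeneSpring, with an algorithm not given in the sources used here, and deposited log2 values for 36685 transcript clusters. Their range was taken to show a log2 scale. Gene names came from the platform's probe table: 18511 clusters carry 1 symbol, and the cluster with the highest mean was kept for each of 18166 genes. Listed genes without such a cluster were not analysed here. The comparison used limma 3.58.1 under R 4.3.3, with variances moderated by empirical Bayes and p values adjusted by Benjamini-Hochberg over all genes, and the fit was tested on simulated data. The arrays have no read depth, and their number limits the precision. Same-number arrays correlated at 0.146, 0.284 and 0.148 in their deviations from the group means across genes, and other pairs at -0.24 to 0.0201, so the replicate number was also fitted as a block. This is weak evidence of a pairing, since deviations cancel within a group, and neither the labels nor the paper states one. Per the methods 1 male per litter entered the study, so the pups of a group came from separate litters.

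The genes named are the 10 genes of the set, list genes past the threshold, the 4 genes of smallest p in each of the lists of other hormones, processing and transcription factors, the 2 nearest profiles, landmark genes of regions and *Dpp4*. *Insm1*, *Rfx6*, *Tph1*, *Slc40a1* in its role as a landmark, and single stomach, pancreas, neuron and region genes were picked after their values were seen, and the searched promoter letters after the windows were read. The set and the lists were chosen with earlier results of these data known. Alternatives covered the block, moderation, array weights, scaling, arrays left out, filters, cluster choice, the methods' t-test and the threshold.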

Additional observations from a re-analysis of the deposited data

How the results depend on the processing

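The count of the 10 hormone and granin genes past the threshold was 0 with all arrays and stayed 0 with array weights, trend and robust moderation, arrays centred on their medians, quantile normalization, the filter on dim genes, the mean of clusters, all clusters, the methods' t-test, a fold change of at least 2 and no fold threshold. It was 3 with the replicate number as a block, which changed no call beyond *Gip*, *Nts* and *Chgb*, and 0 to 3 with 1 array left out. Without both replicate 2 arrays, a setting chosen after the data were seen, it was 2, and 341 of 18166 genes were past the threshold. Also chosen then was a fit without HFD-sitagliptin replicates 1 and 3, where the lone array left is assumed to vary like the HFD arrays. In that last setting 4 genes changed sign, *Gcg* (0.41), *Cck* (-0.25), *Nts* (0.65) and *Ghrl* (-1.74). The rest kept theirs, *Gip* (-1.23), *Sst* (-0.71), *Sct* (1.11), *Pyy* (3.10), *Chga* (0.42) and *Chgb* (0.36). Genes past the threshold are not counted for that fit, since 1 group has a single array. Over all genes 365 were past the threshold, 476 with the replicate block, 1379 with all clusters, which are more in number, 158 in the methods' t-test, 57 at a fold change of at least 2, 1040 with no fold threshold, 648 without HFD-sitagliptin replicates 1 and 3, and 239 to 880 with 1 array left out. With arrays centred on their medians 81 were higher and 390 lower, against 128 and 237. The values with 1 array left out ran from -0.70 to 0.57 for *Gcg*, -0.15 to 0.45 for *Cck*, -0.01 to 0.70 for *Sct* and -0.13 to 1.72 for *Ghrl*. The cause of these changes was not tested.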
